A study of Mus musculus with 10 samples.

Results

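WNT ligands, their receptors and co-receptors, the R-spondins, the secreted inhibitors and the feedback gene Axin2 were followed in RNA sequencing of mouse preadipocytes, the precursors of fat cells. The members were chosen by gene symbol: all Wnt, Fzd, Dkk, Sfrp and Rspo genes, with Wif1, Lrp5, Lrp6 and Axin2. This gave 45 genes of 32903 in the gene table, 26 of which were abundant enough to be tested among 14597 genes. No measured value entered that choice of symbols, but the family was picked for description with the differences between BPS and DMSO already known, so the values of that comparison are given as a description and not as independent support.

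The preadipocytes were derived from subcutaneous fat of the groin (inguinal depot) of mice that were male and WT C57 BL6, and both groups share this origin. One group of 5 libraries received the vehicle DMSO, and the other group of 5 libraries received 2.5 µM BPS (bisphenol S, an analogue of bisphenol A) dissolved in DMSO. The series title places the comparison within the question of how bisphenols promote fat cell formation. How long the cells were exposed, and if each replicate was its own mouse or dish, was not given in the sources used here. All p-values therefore measure only the spread between these libraries, which may be technical.

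WNT proteins are secreted, lipid-modified signals that bind Frizzled receptors together with the co-receptors LRP5 and LRP6. Binding stabilises β-catenin, which then acts with TCF/LEF factors in the nucleus, while other branches act through planar polarity and calcium. SFRP proteins and WIF1 bind WNT proteins outside the cell, most DKK proteins block the co-receptors, and R-spondins keep receptors at the cell surface. In preadipocytes, WNT signalling through β-catenin is known as a brake on the formation of fat cells, with Wnt10b as its best studied ligand in that setting.

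Each library held 37920689 to 42717227 estimated counts in total. Pairs of libraries within a group had a chi-square of 4.13 to 8.77 per degree of freedom, well beyond sampling noise, so none was a copy of another. The highest of these values came from BPS replicate 1. All 12 progenitor markers were tested, with Pdgfra at 904 CPM (counts scaled by library size) and Col1a1 at 21821 CPM on average in DMSO. Of these markers 3 were called higher (Cd34, Thy1 and Cd81) and 0 lower, where 4.88% of all tested genes were called. Their summed level overlapped between the groups, but most of that sum was Col1a1, so it says little about the other markers. Mature adipocyte, epithelial and lymphocyte markers did not pass the filter on low counts. The summed level of the 7 mural (pericyte and smooth muscle) markers was 70.8 to 77.9 CPM in DMSO and 84.5 to 93.0 CPM in BPS, without overlap. All 7 were tested and none was at 0. Of these, Cspg4 and Des were called higher, while Rgs5, which defines pericytes, averaged 3.55 and 3.84 CPM. The mesothelial sum was 9.055 to 11.02 CPM in DMSO and 10.99 to 12.9 CPM in BPS, with Upk3b and Msln at 0 in every library. Most of that sum was Krt19, which was called higher, while Wt1, the other tested mesothelial marker, averaged 0.849 CPM in DMSO and 0.569 CPM in BPS (edgeR adjusted p = 0.155). Endothelial markers summed to 17.9 to 23.5 CPM in DMSO and 17.4 to 23.3 CPM in BPS. Macrophage markers summed to 11.5 to 18.9 CPM in DMSO and 12.5 to 21.8 CPM in BPS. For Schwann cell markers the sums were 3.07 to 4.24 CPM in DMSO and 2.18 to 4.50 CPM in BPS. The groups overlapped in each of these sums, and none of the tested markers behind them was called. The part of any of these cell types in the differences described here was not tested. In bulk RNA, fewer cells of a type and less RNA per cell cannot be told apart.

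Dkk2, a secreted inhibitor, was the clearest difference in the family, and it was higher in all 5 BPS libraries than in any DMSO library. Fzd6, a receptor of low level, was also called higher, and Fzd1, an abundant receptor, was called lower by a small amount. A gene was called when its p from the quasi-likelihood test of edgeR, adjusted over all genes by Benjamini-Hochberg, was under 0.05. These were 3 of 26 tested members (11.5%), where 4.88% of all tested genes were called. By direction, 2 members were higher (background 3.06%) and 1 was lower (background 1.82%). The BPS and DMSO values did not overlap for 2 members (7.69%), Dkk2 and Fzd6, against 6.9% of all tested genes. An unadjusted p under 0.05 by edgeR was found for 12 members (46.2%), against 18.8% of all tested genes. The median log2 fold change of the tested members was 0.018, and that of all tested genes was 0.00039. Across all tested genes 447 were called higher and 265 lower, a split that became 334 and 394 with scaling to library size only. Since the family was chosen with this comparison known, no more is read from these shares.

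**Figure D1:**
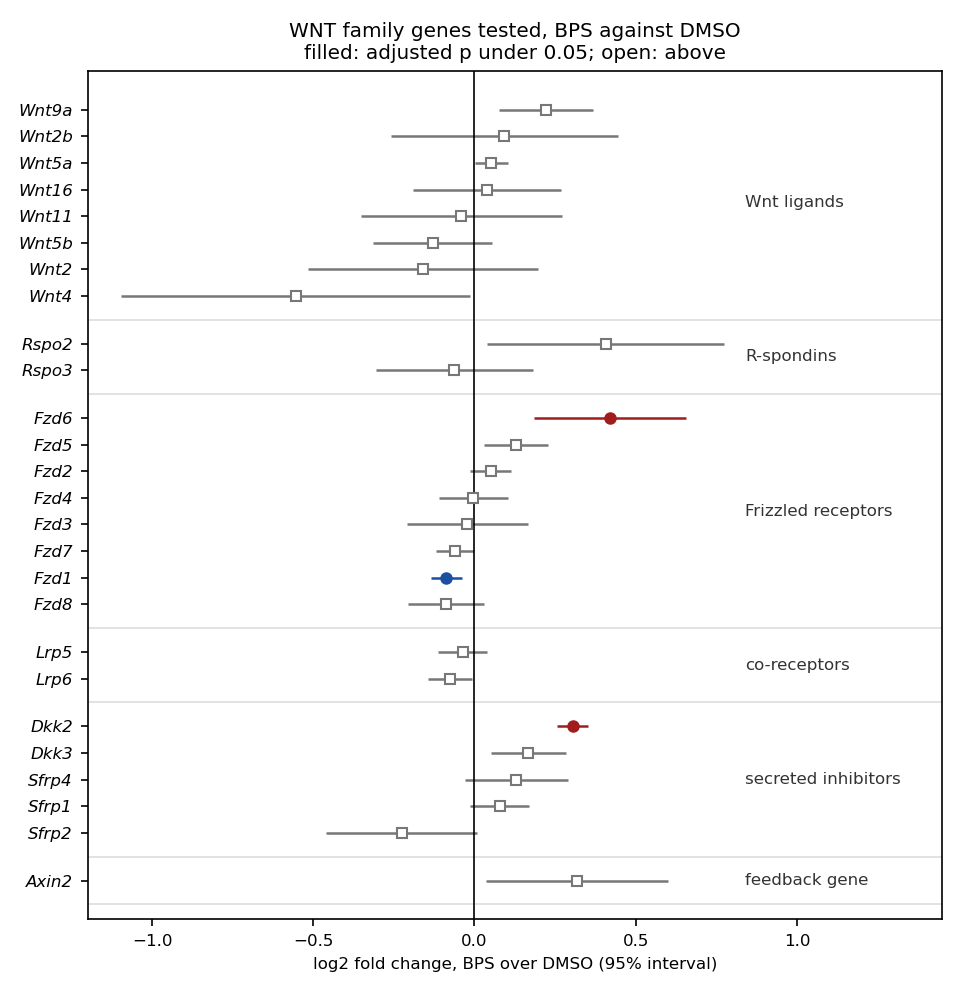
Log2 fold change of BPS over DMSO for the 26 tested members, grouped by role, with 95% intervals from edgeR's quasi-likelihood fit (5 libraries a group). Filled points had an adjusted p under 0.05: Dkk2 at 0.30, Fzd6 at 0.42 and Fzd1 at -0.088, while the widest interval belongs to Wnt4.

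To compare levels between genes, CPM values were divided by transcript length, which was available for all 45 members. On this scale the secreted inhibitors Sfrp1 and Dkk2 were the most abundant members in DMSO, at 137 ± 7.87 and 117 ± 2.93 CPM per kilobase (SD, n = 5). Dkk3 followed at 40.9 ± 1.51 and Sfrp2 at 29.1 ± 4.29 CPM per kilobase. Fzd2 led the receptors at 48.3 ± 1.51 CPM per kilobase, ahead of Fzd1 at 25.9 ± 0.437 and Fzd7 at 10.3 ± 0.299. The co-receptors Lrp6 and Lrp5 lay close together at 21.8 ± 0.433 and 19.2 ± 0.425 CPM per kilobase, without overlap between their DMSO libraries. Wnt5a was the highest ligand at 12.5 ± 0.283 CPM per kilobase, and the next ligand, Wnt9a, stood at 2.54 ± 0.208. Within the order of each role, neighbours whose DMSO libraries overlapped were Wnt2 and Wnt16, Wnt16 and Wnt5b, and Fzd6 and Fzd3.

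**Figure D2:**
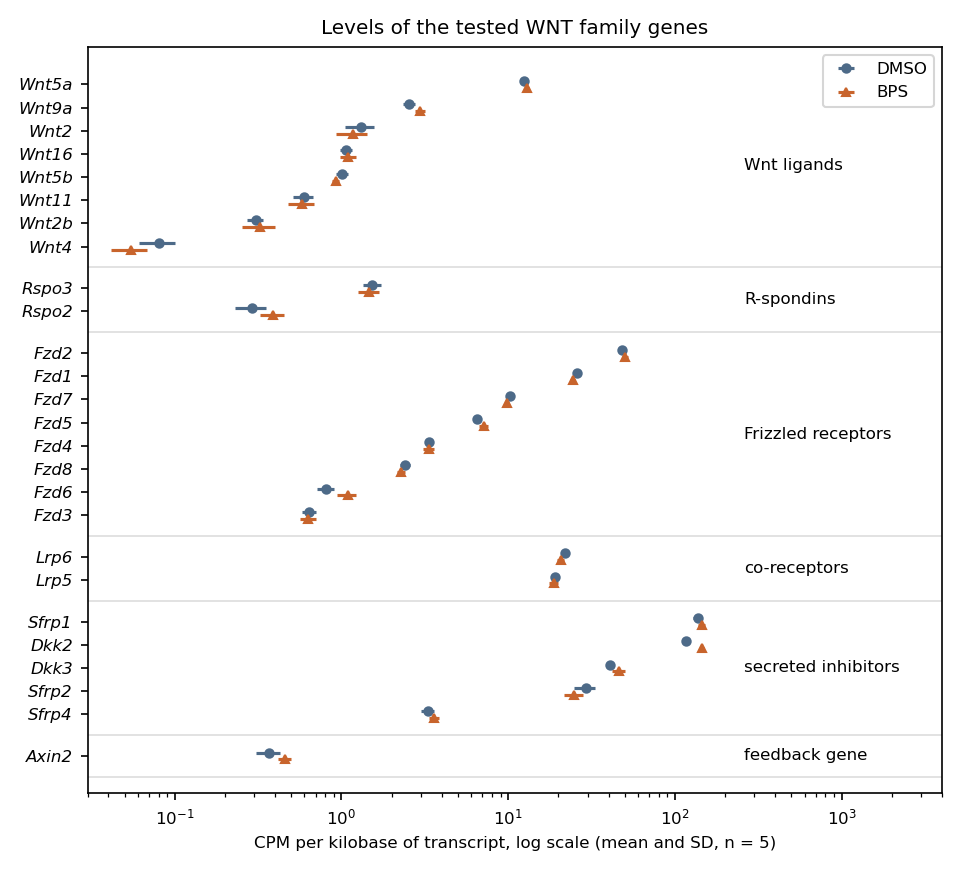
Mean level of the 26 tested members in CPM per kilobase of transcript on a log axis, with SD over 5 libraries, for DMSO (circles) and BPS (triangles). Sfrp1 and Dkk2 lie above 100 CPM per kilobase, and Wnt4 is the lowest at 0.0807 CPM per kilobase in DMSO.

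Of 19 Wnt ligands, 8 were tested and 0 were called by edgeR, and DESeq2 and limma-voom also called 0. At an unadjusted p under 0.05 there were 3, Wnt4, Wnt5a and Wnt9a, where 18.8% of all tested genes lay under that value. Wnt5a, a ligand best known for signalling without β-catenin, held 63.8 ± 0.945% of the summed ligand level per kilobase in DMSO and 63.9 ± 0.947% in BPS. Its libraries had 85.2, 86.0, 89.1, 87.7 and 89.8 CPM in DMSO and 88.5, 93.9, 89.4, 92.8 and 89.3 CPM in BPS. The groups overlapped, and the log2 fold change was 0.052 (SE 0.023, 95% interval 0.0018 to 0.10, edgeR adjusted p = 0.251). It was 0.0046 with curated transcripts alone.

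Wnt9a, a ligand of the β-catenin branch, had 8.43, 7.49, 8.80, 9.32 and 8.10 CPM in DMSO. The BPS libraries had 9.38, 8.96, 10.2, 10.1 and 10.5 CPM. All but BPS replicate 2 lay above every DMSO library, and the log2 fold change of 0.22 (SE 0.067, 95% interval 0.077 to 0.37) was not called (edgeR adjusted p = 0.0833). Wnt2 stood at 2.53, 3.07, 2.23, 3.66 and 3.27 CPM in DMSO and 2.38, 3.56, 2.17, 2.31 and 2.80 CPM in BPS. These ranges overlap broadly (log2 fold change -0.16, SE 0.16, edgeR adjusted p = 0.672), and the log2 fold change was -0.29 without BPS replicate 2 and -0.072 without DMSO replicate 4. With curated transcripts alone it was -0.028. Wnt5b, a close relative of Wnt5a that is known for promoting fat cell formation in culture, had 2.64, 2.53, 2.38, 2.13 and 2.32 CPM in DMSO and 2.18, 2.33, 2.25, 2.03 and 2.19 CPM in BPS. Its log2 fold change was -0.13 (SE 0.085, 95% interval -0.31 to 0.056, edgeR adjusted p = 0.512), and the groups overlapped.

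The lowest tested ligand, Wnt4, rested on 5 to 16 counts per library. It had a log2 fold change of -0.55 (SE 0.25, 95% interval -1.10 to -0.014) and an adjusted p of 0.26 by edgeR. Wnt2b, Wnt11 and Wnt16, the remaining tested ligands, had log2 fold changes of 0.093, -0.040 and 0.039 on 30 to 96 counts per library, and their groups overlapped.

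The other 11 ligands did not pass the filter on low counts. Wnt10b, the ligand best known for holding back fat cell formation, had 6, 9, 11, 2 and 6 counts in the DMSO libraries and 6, 6, 7, 9 and 9 in the BPS libraries. Wnt6 had 4, 5, 3, 3 and 0 counts in DMSO and 4, 2, 1, 4 and 3 in BPS. Wnt10a, which acts with these in restraining fat cell formation, had 2, 0, 1, 0 and 0 counts in DMSO and 0 in every BPS library. Of the 11, 8 ligands had at most 3 counts in every library, and Wnt3 and Wnt3a had 0 counts in all 10. A count of 0 allows up to 3 counts, or 0.0752 to 0.0862 CPM per library, for counting error only. When all genes were tested without a filter on low counts, 43 members entered and Dkk2 alone was called, so none of these ligands was.

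R-spondins enhance WNT signals by removing the ubiquitin ligases that take receptors off the cell surface. Of 4, 2 were tested and 0 were called by edgeR, DESeq2 or limma-voom. Only Rspo2 had an unadjusted p under 0.05 by edgeR, where 18.8% of all tested genes lay under that value. Rspo3 had 4.24, 4.53, 5.40, 5.26 and 4.13 CPM in DMSO and 3.99, 4.02, 4.82, 4.26 and 5.51 CPM in BPS. Its groups overlapped throughout (log2 fold change -0.062, SE 0.11, edgeR adjusted p = 0.83), and the log2 fold change was -0.0084 without DMSO replicate 3 and -0.14 without BPS replicate 5.

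Rspo2 had 0.952, 0.742, 0.938, 1.32 and 0.922 CPM in DMSO and 1.48, 1.44, 1.03, 1.10 and 1.41 CPM in BPS. With 29 to 59 counts per library, DMSO replicate 4 overlapped the BPS range, and the log2 fold change of 0.41 (SE 0.17, 95% interval 0.040 to 0.77) did not pass (edgeR adjusted p = 0.213). Rspo4 had 5, 3, 5, 8 and 1 counts in DMSO and 6, 3, 4, 5 and 3 in BPS, and Rspo1 had 0 to 5 counts per library.

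Frizzled proteins are the receptors that bind WNT proteins directly. Of 10 Fzd genes 8 were tested, and 1 was called higher and 1 lower, where 3.06% of all tested genes were called higher and 1.82% lower. The summed receptor level did not separate the groups, at 95.8 to 99.9 CPM per kilobase in DMSO and 95.5 to 102 in BPS. Most of that sum was Fzd2 and Fzd1, so it says little about the other receptors. Fzd6, a receptor linked to planar polarity, had 3.67, 3.96, 3.65, 3.40 and 2.88 CPM in DMSO. Its BPS libraries had 4.24, 4.11, 5.47, 4.48 and 5.23 CPM, all above the highest DMSO library. On 103 to 202 counts per library, it rose by 0.42 on the log2 scale (SE 0.11, 95% interval 0.19 to 0.66), with an adjusted p of 0.0469 by edgeR. Its share of the summed receptor level was 0.827 ± 0.101% in DMSO and 1.10 ± 0.122% in BPS (SD, n = 5).

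The Fzd6 call lay close to the threshold and was lost in 13 of 19 alternative settings. Without BPS replicates 3, 4 or 5 the adjusted p by edgeR was 0.104, 0.0753 and 0.0979, and without DMSO replicates 1 to 5 it was 0.0807, 0.0537, 0.0799, 0.0965 and 0.0901. It was also lost when only curated transcripts were summed (log2 fold change 0.44, adjusted p = 0.844). Over all 19 settings the log2 fold change of Fzd6 stayed between 0.36 and 0.47. The 6 transcripts of Fzd6 in the table shared its counts unevenly from library to library. The curated transcript NM_008056.3 took between 0 and 82.4% of the gene's counts in BPS libraries, so only the sum per gene is described. In the annotation Gm26704 overlaps Fzd6 on the opposite strand, and whether reads were counted by strand was not given in the sources used here.

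Fzd1, a receptor of the β-catenin branch, had 108, 105, 109.6, 109 and 110.0 CPM in DMSO. The BPS libraries had 106, 102, 98.4, 104 and 101 CPM, and only BPS replicate 1 reached into the DMSO range. Fzd1 fell by 0.088 on the log2 scale (SE 0.022, 95% interval -0.14 to -0.039), a change of -5.89%, with an adjusted p of 0.0448 by edgeR. This call was also lost in 13 of 19 alternative settings, with an adjusted p of 0.0501 by limma-voom. Without BPS replicates 2, 3, 4 or 5 the adjusted p by edgeR was 0.0886, 0.0943, 0.0694 and 0.0887. Without DMSO replicates 1, 3, 4 or 5 it was 0.0813, 0.0953, 0.0885 and 0.0971.

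Fzd2, the most abundant receptor per kilobase, had 168, 177, 178, 183 and 178 CPM in DMSO and 173, 182, 189, 181 and 191 CPM in BPS. Its groups overlapped (log2 fold change 0.050, SE 0.030, 95% interval -0.015 to 0.11, edgeR adjusted p = 0.409, and 0.032 without DMSO replicate 1). It made up 49.1 ± 0.845% of the summed receptor level in DMSO and 50.6 ± 0.809% in BPS. Fzd5 had 45.0, 45.8, 48.4, 44.7 and 42.3 CPM in DMSO and 47.3, 48.7, 50.5, 46.5 and 54.4 CPM in BPS. Only DMSO replicate 3 reached into the BPS range, and the log2 fold change of 0.13 (SE 0.045) did not pass (edgeR adjusted p = 0.14). Fzd3, Fzd4, Fzd7 and Fzd8 had log2 fold changes of -0.022, -0.0032, -0.060 and -0.088, with adjusted p between 0.263 and 0.984 by edgeR. Fzd9 and Fzd10 had 2 to 10 counts per library and were not tested.

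LRP5 and LRP6 are the single-pass co-receptors that carry the WNT signal towards β-catenin and that DKK proteins bind. Neither was called by edgeR, DESeq2 or limma-voom. Lrp6 had 207, 209, 205, 199 and 202 CPM in DMSO and 179, 198, 194, 193 and 205 CPM in BPS. All but BPS replicate 5 lay under every DMSO library, and the log2 fold change was -0.076 (SE 0.031, 95% interval -0.14 to -0.0076, edgeR adjusted p = 0.213). Without BPS replicate 1, the lowest library, it was -0.048. Lrp5 had 97.3, 101, 99.4, 96.6 and 102 CPM in DMSO and 89.7, 104, 93.9, 97.8 and 98.0 CPM in BPS. The ranges overlapped, with a log2 fold change of -0.037 (SE 0.035, 95% interval -0.11 to 0.039, edgeR adjusted p = 0.637). It was -0.011 without BPS replicate 1 and -0.065 without BPS replicate 2.

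Secreted inhibitors were the most abundant class. Of 9, 5 were tested, 1 was called higher and 0 were called lower, where 3.06% of all tested genes were called higher and 1.82% lower. Dkk2 binds the co-receptors and, unlike Dkk1, is known to either block or weakly activate them depending on the cell. It had 450.2, 430.4, 429, 422 and 439.9 CPM in DMSO. The BPS libraries had 558, 523, 529, 529.8 and 542 CPM, so that the lowest BPS library lay above the highest DMSO library. The means were 434 ± 10.9 and 536 ± 13.7 CPM (SD, n = 5), on 15751 to 22241 counts per library. Dkk2 rose by 0.30 on the log2 scale (SE 0.022, 95% interval 0.26 to 0.35), a change of 23.5%, with an adjusted p of 2.23e-05 by edgeR. The call held in all 19 alternative settings, with log2 fold changes of 0.29 to 0.32. Per kilobase, Dkk2 stood under Sfrp1 in DMSO (117 against 137 CPM), and in BPS both stood at 145 CPM.

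The sequence before the start of Dkk2 and of Fzd1 is shown because these were the called members that the RefSeq promoter table holds; Fzd6 has no entry. Each line gives the 250 bases before the annotated start, 5′ to 3′ on the gene's strand, in build GRCm38.p6, at chr3:132085042-132085291 (plus strand) for Dkk2 and chr5:4758217-4758466 (minus strand) for Fzd1. Capitals mark the motifs GCGTG (the core of the aryl hydrocarbon receptor element), CTTTGA (the TCF/LEF core) and TGANTCA (AP-1), searched on both strands. GGGCGG (the GC box) was also searched and is not capitalised.
Dkk2: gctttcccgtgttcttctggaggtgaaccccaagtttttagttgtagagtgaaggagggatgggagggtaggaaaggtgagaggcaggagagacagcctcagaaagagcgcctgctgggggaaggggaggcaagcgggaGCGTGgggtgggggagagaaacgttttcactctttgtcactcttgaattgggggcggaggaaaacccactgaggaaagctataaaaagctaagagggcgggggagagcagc
Fzd1: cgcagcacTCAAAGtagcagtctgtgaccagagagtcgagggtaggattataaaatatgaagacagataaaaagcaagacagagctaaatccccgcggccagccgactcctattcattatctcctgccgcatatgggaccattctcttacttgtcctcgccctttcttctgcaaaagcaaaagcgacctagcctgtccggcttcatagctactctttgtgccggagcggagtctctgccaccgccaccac

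The Dkk2 window held GCGTG once, beginning 111 bases before the start, and GGGCGG at 2 places, with no CTTTGA or TGANTCA. The Fzd1 window held CTTTGA once, on the opposite strand, beginning 242 bases before the start, and none of the others. Among 32851 promoter windows of that length in the table, 28.2% held GCGTG, 13.8% held CTTTGA, 6.75% held TGANTCA and 32.7% held GGGCGG. Among the 32 windows of the 29 members in the table, 16 held GCGTG, 4 held CTTTGA, 1 held TGANTCA and 23 held GGGCGG. Member windows were richer in G and C, with a median of 68.6% against 52.4% over all windows. A match is a description of letters only.

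Dkk3, a divergent member of the DKK group, had 145, 139.6, 132, 136 and 135 CPM in DMSO. The BPS libraries had 169, 160.0, 149, 159 and 134 CPM, and only BPS replicate 5 lay within the DMSO range. The log2 fold change of 0.17 (SE 0.053, 95% interval 0.051 to 0.28) was not called (edgeR adjusted p = 0.101). It was called in the DESeq2 Wald test (adjusted p = 0.0414) and when BPS replicate 5 was left out (log2 fold change 0.21, edgeR adjusted p = 0.0103).

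Sfrp1, a WNT-binding inhibitor, had 584, 590.2, 656, 597 and 565 CPM in DMSO and 585, 623, 645, 639 and 669 CPM in BPS. The groups overlapped, with a log2 fold change of 0.079 (SE 0.042, 95% interval -0.012 to 0.17, edgeR adjusted p = 0.346). It was 0.12 with exact version matching. Sfrp2, its close relative, had 51.0, 55.1, 69.2, 65.7 and 50.7 CPM in DMSO and 39.3, 51.0, 54.6, 49.3 and 55.5 CPM in BPS. DMSO replicates 3 and 4 were the highest and BPS replicate 1 was the lowest. The log2 fold change was -0.23 (SE 0.11, 95% interval -0.46 to 0.0091) with an adjusted p of 0.287 by edgeR, and -0.15 without BPS replicate 1. Sfrp4 averaged 5.82 ± 0.491 CPM in DMSO and 6.36 ± 0.446 CPM in BPS (log2 fold change 0.13, SE 0.073, edgeR adjusted p = 0.383).

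The summed level of the 9 secreted inhibitors was 317 to 343 CPM per kilobase in DMSO and 358 to 371 in BPS, without overlap. Dkk2, the only called inhibitor, averaged 117 in DMSO and 145 in BPS, so this sum is not a result apart from Dkk2. Sfrp1 averaged 137 and 145, Dkk3 40.9 and 46.0, Sfrp4 3.30 and 3.61, and Sfrp2 29.1 and 24.9, in the same order. Dkk2 took 35.8 ± 1.55% of this sum in DMSO and 39.8 ± 1.27% in BPS, while Sfrp2 took 8.87 ± 1.11% and 6.84 ± 0.816% (SD, n = 5). These shares are parts of 1 sum and move against each other by construction.

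The remaining inhibitors had low counts. Dkk1, the best known antagonist of the co-receptors, had 0, 0, 0, 0 and 1 counts in DMSO and 2, 0, 1, 1 and 2 in BPS. Sfrp5, an inhibitor known from mature fat, had 1, 1, 0, 0 and 0 counts in DMSO and 0, 0, 0, 2 and 1 in BPS. Wif1 had 3, 9, 7, 7 and 4 counts in DMSO and 11, 12, 8, 6 and 7 in BPS. Dkk4 had 1 count in 1 BPS library and 0 in the others. None of these genes was called when the filter was left out.

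**Figure D3:**
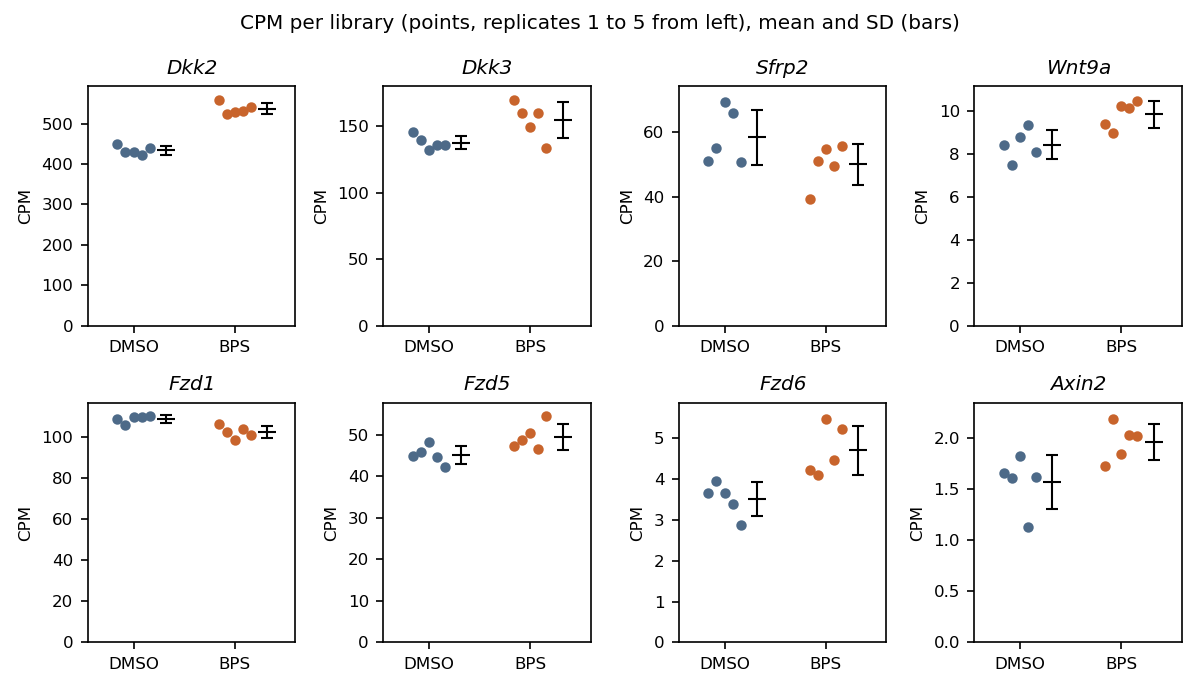
CPM of 8 members in each library, with every axis starting at 0, for 5 DMSO and 5 BPS libraries (points, replicates from left to right) and the mean with SD (bars). Dkk2 and Fzd6 show no overlap between groups, Fzd1 overlaps through BPS replicate 1, and Dkk3 through BPS replicate 5.

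Axin2 limits β-catenin as a scaffold of its destruction complex and is itself switched on by the pathway, so it often serves as a readout. It had 1.66, 1.61, 1.83, 1.13 and 1.62 CPM in DMSO and 1.73, 2.18, 1.84, 2.03 and 2.02 CPM in BPS, on 43 to 76 counts per library. BPS replicate 1 lay within the DMSO range and DMSO replicate 4 was the lowest. The log2 fold change of 0.32 (SE 0.13, 95% interval 0.037 to 0.60) was not called (edgeR adjusted p = 0.203). Predicted transcript XM_006532060.1 held 64.0% of its counts and averaged 31.1 counts in DMSO and 52.7 in BPS. The other predicted transcripts with any counts were lower in BPS, at 11.7 and 4.68 counts and at 4.69 and 2.345 counts. The curated transcript NM_015732.4 averaged 11.9 counts in both groups. With curated transcripts alone the log2 fold change was -0.0014, and with exact version matching it was -0.46. The curated transcript held only 18.1% of the gene's counts, at 0 to 19.8 counts per library in both groups. Its value therefore cannot decide the direction of the sum.

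Of the called members other than Fzd6, Fzd1 has a single transcript in the table. The curated Dkk2 transcript NM_020265.4 held 87.2% of that gene's counts, with shares of 85.5 to 88.3% in DMSO libraries and 85.3 to 90.1% in BPS libraries. In GENCODE, 7 of the 26 tested members (Axin2, Fzd5, Fzd6, Rspo3, Sfrp2, Wnt5a and Wnt11) have an exon that overlaps a gene on the opposite strand, and Dkk2 and Fzd1 have none.

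The rest of the pathway was read from a list of 89 genes, of which 76 were tested. Of these, 4 were called higher and 4 lower (10.5%, background 4.88%), and the median log2 fold change was 0.0094. By role, the calls were 1 of 4 genes for secretion and ligand processing, 2 of 12 tested receptors and regulators of receptor turnover, and 1 of 3 other ligands and antagonists. They also comprised 1 of 15 nuclear factors, 2 of 6 textbook targets and 1 of 12 planar polarity genes. This list was also chosen with earlier results of these data known, so no more is read from these shares. None of 24 cytoplasmic transducers was called by edgeR or limma-voom with the filter and scaling used throughout. Of these 24, 6 had an unadjusted p under 0.05 by edgeR, where 18.8% of all tested genes lay under that value. DESeq2 called Dact1 and Dact3. With edgeR, Dact1 was also called with the CPM filter, with library size only, without BPS replicate 3 and without DMSO replicate 1, and Dact3 without DMSO replicate 4.

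Trabd2b, a membrane metalloprotease that cleaves and inactivates WNT proteins, had 53.0, 50.7, 50.7, 50.9 and 52.2 CPM in DMSO. Its BPS libraries had 59.1, 59.3, 55.6, 58.4 and 57.0 CPM, all above the DMSO libraries. It rose by 0.17 on the log2 scale (SE 0.024, edgeR adjusted p = 0.0026). Ryk, a WNT-binding receptor with an inactive kinase domain, had 218, 214, 223, 220.2 and 219 CPM in DMSO and 230.1, 229, 232, 230.5 and 234 CPM in BPS. The groups did not overlap, and Ryk rose by 0.080 (SE 0.015, edgeR adjusted p = 0.010).

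Lgr4, a receptor for R-spondins, had 34.0, 33.6, 34.9, 34.1 and 34.5 CPM in DMSO and 31.4, 28.0, 29.7, 31.4 and 30.1 CPM in BPS. Every BPS library lay under every DMSO library, and Lgr4 fell by 0.18 on the log2 scale (SE 0.033, edgeR adjusted p = 0.00913). Prickle2, a planar polarity gene, had 43.1, 40.0, 41.1, 42.2 and 39.2 CPM in DMSO and 36.0, 37.4, 34.3, 35.1 and 36.9 CPM in BPS. It fell by 0.19 without overlap (SE 0.033, edgeR adjusted p = 0.00732). The calls for Trabd2b, Ryk and Lgr4 held in all 19 alternative settings. Prickle2 lost its call with curated transcripts alone (adjusted p = 0.147) and with exact version matching (adjusted p = 0.140), at a log2 fold change of -0.20 in both.

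Ccnd1, which encodes cyclin D1 and answers to many growth signals besides WNT, had 315, 302, 288, 282 and 329.9 CPM in DMSO. The BPS libraries had 369.7, 360.0, 329, 352 and 337 CPM, and only DMSO replicate 5 reached into that range. It rose by 0.21 on the log2 scale (SE 0.044, edgeR adjusted p = 0.0214). The adjusted p was 0.0507 to 0.0556 when BPS replicate 2 or 4 or DMSO replicate 2, 3 or 4 was left out, and 0.0574 with curated transcripts alone. Myc, another target shared with other pathways, had 57.6, 60.7, 61.9, 64.1 and 59.9 CPM in DMSO and 59.5, 64.6, 61.7, 58.7 and 62.3 CPM in BPS. Its groups overlapped (log2 fold change 0.012, SE 0.033, edgeR adjusted p = 0.897).

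Ccn5, a secreted matrix protein also called Wisp2, had 9.28, 9.49, 11.8, 9.53 and 8.94 CPM in DMSO and 6.09, 7.07, 7.91, 6.85 and 8.94 CPM in BPS. BPS replicate 5 reached the lowest DMSO library, and the gene fell by 0.41 on the log2 scale (SE 0.11, edgeR adjusted p = 0.0463). That call was lost without any single library other than BPS replicate 5 (adjusted p 0.0581 to 0.101). Frzb, an SFRP relative that binds WNT proteins, had 17.4, 16.8, 17.2, 16.8 and 16.4 CPM in DMSO and 18.7, 18.1, 18.7, 20.4 and 18.2 CPM in BPS. It rose by 0.15 without overlap (SE 0.039, edgeR adjusted p = 0.0463), and leaving out any single library lost the call (adjusted p 0.0527 to 0.101).

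Bcl9, a partner of β-catenin in the nucleus, had 60.3, 61.1, 54.4, 62.8 and 58.6 CPM in DMSO and 55.4, 52.7, 53.2, 52.0 and 55.1 CPM in BPS. DMSO replicate 3 lay within the BPS range, and Bcl9 fell by 0.15 on the log2 scale (SE 0.036, edgeR adjusted p = 0.0431). Leaving out a single library other than BPS replicate 1 or DMSO replicate 3 lost the call (adjusted p 0.0555 to 0.1004). With curated transcripts alone the log2 fold change was -0.29 and was not called (adjusted p = 0.569).

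None of the named central effectors was called. Ctnnb1, which encodes β-catenin, had 796, 784, 793, 789 and 794 CPM in DMSO and 801, 792, 785, 794 and 797 CPM in BPS. The 95% interval of its log2 fold change ran from -0.021 to 0.030 (edgeR adjusted p = 0.882). Tcf7l2, the most studied TCF factor of fat cells, had 17.9, 18.3, 20.1, 20.1 and 18.3 CPM in DMSO and 19.1, 14.6, 19.4, 19.1 and 19.98 CPM in BPS. All but BPS replicate 2 lay within the DMSO range (log2 fold change -0.039, SE 0.076, edgeR adjusted p = 0.846). Lef1, another TCF/LEF factor, had 7.64, 6.32, 5.65, 5.45 and 6.12 CPM in DMSO and 2.93, 6.38, 4.69, 3.10 and 5.98 CPM in BPS. The BPS libraries were spread widely, 2 of them within the DMSO range, and the log2 fold change of -0.44 (SE 0.20) did not pass (edgeR adjusted p = 0.278).

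**Figure D4:**
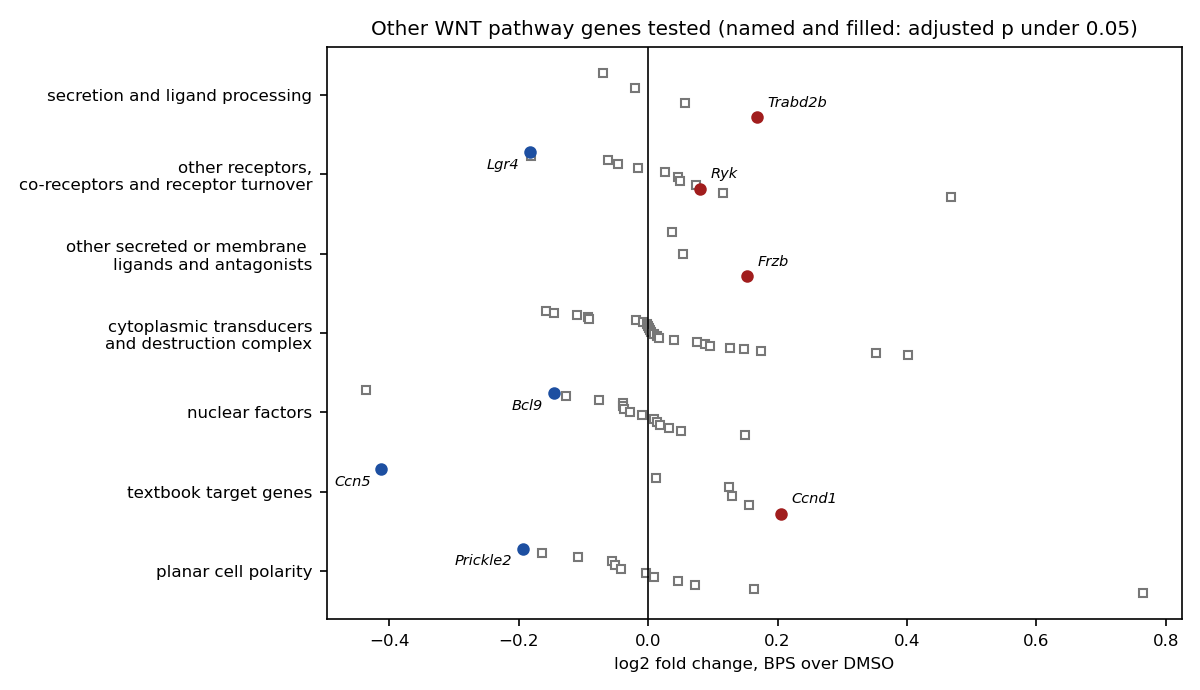
Log2 fold change of BPS over DMSO for the 76 tested genes of the rest of the pathway, 1 row per role. Filled, named points were called (edgeR adjusted p under 0.05): Trabd2b, Ryk, Frzb and Ccnd1 to the right of 0, and Lgr4, Bcl9, Ccn5 and Prickle2 to the left.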

How the data were processed

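RNA sequencing of 10 libraries, 5 per group, was analysed from a deposited table of estimated counts per RefSeq transcript. The authors made these estimated counts with kallisto 0.42.4, per the submitters' processing notes; the index, the build and the use of strand were not given in the sources used here. Accessions were matched without version to a RefSeq gene table (GRCm38.p6, names only): 86722 of 107384 transcripts fell in 32903 genes and held 93.1% of the counts. Counts were summed per gene and rounded. Genes were filtered with filterByExpr, scaled by TMM (factors 0.9854 to 1.008) and tested in edgeR by quasi-likelihood, and p-values were adjusted by Benjamini-Hochberg over 14597 genes. SE is the unshrunken log2 fold change over the square root of F. CPM uses the TMM-scaled library size. Transcript length is the longest GENCODE M21 transcript paired with a gene's accessions.

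Members and lists were chosen with earlier results of these data known. Values of every library were given for called members, members without overlap, the 3 of each role with the highest mean CPM, 13 members fixed by name, called pathway genes (at most 5 a list) and 6 fixed pathway genes. The code was tested on simulated data. Alternatives were DESeq2 size factors, library size alone, a CPM filter or none, limma-voom, the Wald test of DESeq2, a block on replicate number, exact version matching, curated transcripts alone and leaving out each library. Work was done in Python 3.11.15 (pandas 2.3.3) and R 4.3.3 with DESeq2 1.42.0, limma 3.58.1 and edgeR 4.0.16.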

Additional observations from a re-analysis of the deposited data

Results flagged for a closer look

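Among 76 groups of 5 values (tested members and named pathway genes), 5 had a library that stood apart from the other 4 by Dixon's criterion at the 95% level, where chance gives about 3.8. Fzd7 in BPS replicate 1 was low, at 42.56 CPM against 44.79 to 45.41 CPM. Fzd8 in DMSO replicate 1 was low, at 12.76 CPM against 14.73 to 15.06 CPM. Frzb in BPS replicate 4 was high, at 20.43 CPM against 18.07 to 18.71 CPM. Ccn5 in DMSO replicate 3 was high, at 11.79 CPM against 8.936 to 9.529 CPM. Tcf7l2 in BPS replicate 2 was low, at 14.62 CPM against 19.06 to 19.98 CPM.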

How the results depend on the processing

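The library codes place all DMSO libraries before all BPS libraries, so a batch in that order and the treatment cannot be told apart. The 712 called genes became 311 with curated transcripts alone, 328 with exact version matching and 374 with the replicate block, and 449 to 774 with each library left out in turn; it fell by over 1.5 times without BPS replicate 2 (462), 3 (465) or 4 (462) or DMSO replicate 2 (449). The 3 called members became 1 (Dkk2) with curated transcripts, exact version matching, no filter on low counts and the replicate block, and 1 to 3 without single libraries (1 without BPS replicate 3 or 4 or DMSO replicate 1, 3, 4 or 5). The 8 called pathway genes became 3 with curated transcripts or exact version matching, 5 with the replicate block and 4 to 10 without single libraries (4 without BPS replicate 4 or DMSO replicate 2, 5 without DMSO replicate 3, 4 or 5). For replicate numbers 1 to 5, deviations from the group means correlated between the groups at 0.10, 0.0038, -0.067, 0.072 and -0.078, and the numbers are not treated as pairs. Exact version matching and curated transcripts covered 72.1% and 78.7% of the counts; beyond that, the cause was not tested. Of 548 values for 29 named genes, 465 kept direction and side of the threshold. The reversed ones were Axin2 with curated transcripts (-0.0014) and exact versions (-0.46), Ctnnb1 with curated transcripts (-0.0017) and library size alone (-0.010), Tcf7l2 without BPS replicate 2 (0.033), and Myc with library size alone (-0.0030), without BPS replicate 2 (-0.0071) and without DMSO replicate 1 (-0.0076). Without single libraries Tcf7l2 ranged from -0.069 to 0.033 and Myc from -0.0076 to 0.030. None of these was called in either setting.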

Other observations

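Some pathway genes outside the naming rule were singled out after their values had been seen. Lgr5, an R-spondin receptor and a target of the pathway, had 1.14, 1.51, 1.37, 1.448 and 1.65 CPM in DMSO and 2.28, 1.58, 1.84, 2.09 and 2.05 CPM in BPS, on 42 to 91 counts per library. Only BPS replicate 2 lay within the DMSO range, and the log2 fold change of 0.47 (SE 0.13) did not pass (adjusted p = 0.0609 by edgeR). It was called by edgeR when BPS replicate 2 was left out. Wls, the carrier that brings WNT proteins to the cell surface, averaged 254 ± 2.80 CPM in DMSO and 264 ± 3.80 CPM in BPS. Its groups did not overlap, and its adjusted p of 0.0508 by edgeR lay just over the threshold. It was called in the DESeq2 Wald test and in edgeR with the CPM filter.

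Bambi and Intu also had groups without overlap and were not called. Groups did not overlap for 8 of the 76 tested pathway genes (10.5%), against 6.9% of all tested genes, and no more is read from that share. Bambi, a decoy receptor of TGF-β and a target of β-catenin, averaged 12.1 ± 0.955 and 13.5 ± 0.408 CPM (adjusted p = 0.14 by edgeR). Intu, a planar polarity effector, averaged 6.28 ± 0.216 and 5.61 ± 0.308 CPM (adjusted p = 0.13 by edgeR). Daam2, a planar polarity formin, had the largest log2 fold change of the tested pathway list, 0.77 (SE 0.35, adjusted p = 0.271 by edgeR). Its BPS libraries ran from 4.65 to 26.6 CPM and enclosed all DMSO libraries (6.395 to 11.7 CPM).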
